A study of Mus musculus with 5 samples.

Results

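The Ikaros family comprises 5 zinc-finger transcription factor genes, Ikzf1 (Ikaros), Ikzf2 (Helios), Ikzf3 (Aiolos), Ikzf4 (Eos) and Ikzf5 (Pegasus). Their expression was examined in natural killer T (NKT) cells of the mouse thymus with and without interleukin-15 (IL-15). The members were taken by name, as all non-control probes whose RefSeq transcript belongs to one of these symbols, and this gave 10 probes for 5 genes out of 20022 named genes on the array. NKT cells carry a T-cell receptor for lipids that the molecule CD1d presents. Here they were sorted from T cell-enriched suspensions of 10 pooled thymi as cells positive for CD3e and a CD1d tetramer. There were 3 wild-type C57BL/6 samples and 2 samples from IL15-/- mice on the C57BL/6 background (called IL15ko below), each on 1 one-colour Agilent array. Age and sex of the mice are not given in the sources used here. The labels do not say that the samples of a group came from separate pools, so the spread behind each p-value is that among these arrays and could be technical in origin. Wild-type 1 and 2 were closer to each other (robust SD of their log2 differences 0.1696) than either was to wild-type 3 (0.343 and 0.376) or IL15ko 1 to IL15ko 2 (0.381). Counting the mean of wild-type 1 and 2 as 1 sample left 34 genes called higher and 67 lower, in place of 450 and 429, and Ikzf4 was not called (1.44, limma adjusted p = 0.0856).

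Ikaros factors bind DNA through zinc fingers near the N terminus and pair with themselves and one another through a second group of fingers at the C terminus. They recruit the NuRD chromatin-remodelling complex and other corepressors, and can silence or keep active the genes they bind. Ikaros is needed for the development of lymphocytes, Aiolos acts in B cells and mature lymphocytes, and Helios and Eos are best known from regulatory T cells, where Eos works with the factor Foxp3. Helios also marks thymocytes that received strong signals through their T-cell receptor, the kind of selection from which NKT cells arise. IL-15 is a cytokine that signals through STAT5 and is needed for the last steps of NKT cell maturation in the thymus.

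The share of probes well above background ran from 33.9% on IL15ko 2 to 49.6% on wild-type 3. All 8 measured T and NKT cell markers were well above background on all 5 arrays, among them Cd3e, Cd3d, Lck and the NKT factor gene Zbtb16. Il15, the gene targeted in the knockout, stayed at background on all 5 arrays by the scanner's call, so it checks no label. Xist, which is transcribed in female cells, was well above background on both IL15ko arrays (processed signals of 318 and 125) and on none of the wild-type arrays. The Y-linked genes Ddx3y and Eif2s3y were well above background on all 5 arrays, with processed signals of 429.8, 290.7 and 750.9 for Ddx3y in wild-type 1, 2 and 3 and of 175 and 67.9 in IL15ko 1 and 2. These sex-linked genes were looked at after their values were seen. The make-up of the pools by sex therefore moved with the genotype, and both cannot be told apart in any result below.

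Of the 5 family members, 1 was called: Ikzf4 was higher in IL15ko NKT cells, 2.59-fold by its brightest probe. Ikzf1, Ikzf2, Ikzf3 and Ikzf5 did not pass the test. The call of Ikzf4 held in only 8 of 18 alternatives of processing or arrays used. Its probe A_55_P1979682 went the other way (log2 difference -0.60, not called). All 5 members were measurable, since 9 of the 10 probes stood well above background on all 5 arrays. Values are log2 of the processed signal minus the 75th percentile of detected probes on the same array, so that 0 is the level of a bright probe and each step of 1 is a 2-fold step in signal. Each gene was tested by its brightest probe with limma over 11997 genes, with Benjamini-Hochberg adjustment and a threshold of 0.05. Of these genes, 7.33% were called, 3.75% as higher and 3.58% as lower in IL15ko. Levels of different genes are not compared, because probes differ in how brightly they report. Since these are bulk samples, a change in the share of cells that express a gene and a change of its RNA per cell cannot be told apart.

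**Figure D1:**
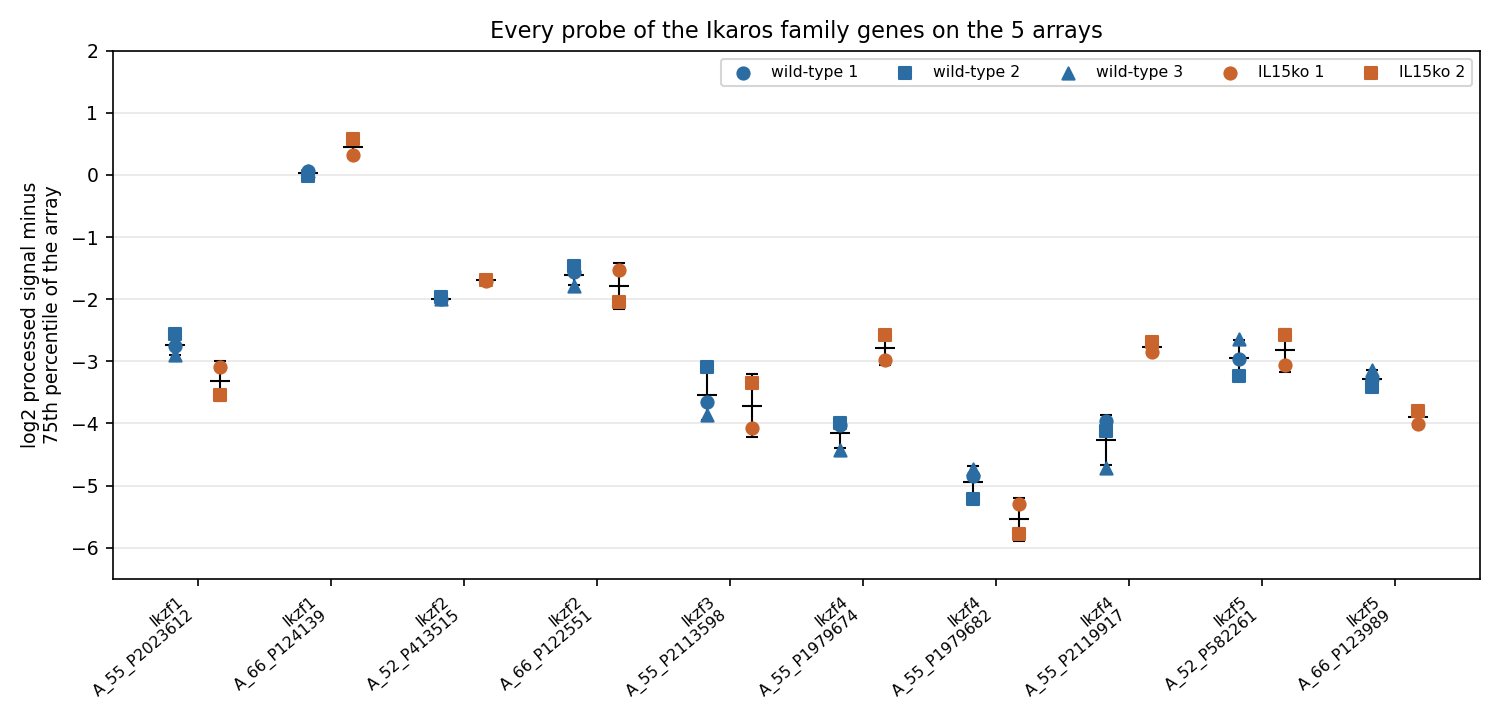
The plot of every family probe by array shows log2 processed signal minus the 75th percentile of the array (vertical axis) for the 10 probes, with 3 wild-type arrays in blue and 2 IL15ko arrays in orange, and with black bars for the group mean and SD. The Ikzf4 probes A_55_P1979674 and A_55_P2119917 lie above all wild-type arrays on both IL15ko arrays, while the Ikzf4 probe A_55_P1979682 lies below them.

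Ikzf4 encodes Eos, a corepressor partner of Foxp3 in regulatory T cells. Its brightest probe (A_55_P1979674, transcript NM_011772, chromosome 10) stood at -4.03, -4.00 and -4.43 in wild-type 1, 2 and 3 and at -2.98 and -2.58 in IL15ko 1 and 2. Both IL15ko arrays were thus above all wild-type arrays. The group means were -4.15 ± 0.24 (SD, n = 3) and -2.78 ± 0.28 (SD, n = 2). The log2 difference was 1.37 ± 0.21 (SE), a 2.59-fold rise with a 95% confidence interval of 1.79 to 3.75 (limma adjusted p = 0.0273). This change was larger than that of 95.9% of the tested genes when the direction is set aside. A second probe of the same transcript (A_55_P2119917) gave -3.95, -4.12 and -4.72 in wild-type 1, 2 and 3 and -2.85 and -2.69 in IL15ko 1 and 2. It rose by a like amount, with a log2 difference of 1.49 ± 0.26 (limma adjusted p = 0.0387 over 15581 named probes, of which 2.95% were called higher). The adjusted p of the brightest probe in that fit was 0.0307.

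The call of Ikzf4 rests on few arrays, and its direction rests on the same 5 arrays. Because both IL15ko arrays lay above all wild-type arrays, leaving out 1 array could not reverse that direction. The log2 difference was 1.44 without wild-type 1 (limma adjusted p = 0.103), 1.45 without wild-type 2 (adjusted p = 0.0847), 1.58 without IL15ko 1 (adjusted p = 0.0587) and 1.17 without IL15ko 2 (adjusted p = 0.119), and none of these passed. Without wild-type 3 it was 1.24 and passed (adjusted p = 0.0456). Over 18 alternatives it was called in 8 and positive in 18, with values between 0.76 and 1.58. Several of these alternatives change only the variance estimate or the p adjustment and leave the value at 1.37. The count of positive values is therefore no separate support for the direction. The lowest value came from the mean of all 3 probes, because the probe A_55_P1979682 had the opposite sign. The second rising probe, A_55_P2119917, was called in 7 of its 16 alternatives and positive in 16, with the same limit on the count of positive values. It too lost its call without wild-type 1 (adjusted p = 0.099), wild-type 2 (adjusted p = 0.112), IL15ko 1 (adjusted p = 0.0841) or IL15ko 2 (adjusted p = 0.167), and kept it without wild-type 3 (adjusted p = 0.0446).

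The Ikzf4 probe A_55_P1979682 was the dimmest of the 3. It read -4.85, -5.22 and -4.74 in wild-type 1, 2 and 3 and -5.29 and -5.78 in IL15ko 1 and 2, and on IL15ko 2 it was not well above background. Both IL15ko arrays lay below all wild-type arrays, opposite to the other probes. Its log2 difference was -0.60 ± 0.23 (SE) and did not pass (limma adjusted p = 0.181). The change of probe A_55_P1979674 exceeded that of this probe by 1.98 on the log2 scale, and the arrays of both groups did not overlap in that within-array difference (exact two-sided permutation p = 0.1, the smallest that 3 arrays against 2 can give). The 2 rising probes differed from each other by only 0.12 in their changes, with overlapping groups (exact permutation p = 0.4). With a normexp background correction this probe had a positive log2 difference of 0.28. The median of all genes was then at 0.22, against 0.01 in the reported setting. Where the probes lie within the transcript was not analysed here.

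Ikzf1 encodes Ikaros, the founding member. Its bright probe (A_66_P124139, transcript NM_001025597, chromosome 11) stood at 0.06, -0.02 and 0.06 in wild-type 1, 2 and 3 and at 0.32 and 0.58 in IL15ko 1 and 2. The IL15ko arrays were above the wild-type ones without overlap, which held for 47.2% of all tested genes. The log2 difference was 0.41 ± 0.14 (SE, 95% confidence interval 0.06 to 0.76), and with a limma adjusted p of 0.136 it was not called. A dimmer probe of the same transcript (A_55_P2023612) went the other way. It read -2.75, -2.55 and -2.89 in wild-type 1, 2 and 3 and -3.09 and -3.54 in IL15ko 1 and 2, with a log2 difference of -0.59 ± 0.20 (adjusted p = 0.146 over named probes). The changes of both probes differed by 1.00 on the log2 scale, with no overlap between the groups (exact permutation p = 0.1, the smallest possible). No direction can therefore be given for Ikzf1, and the mean of both probes had a log2 difference of -0.09.

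RefSeq's table of promoters (assembly GRCm38.p6) lists 2 starts for Ikzf1 and 1 for Ikzf5, each as 250 bases before to 50 after the start, and was matched for 2 of the 5 members. Because IL-15 signals through STAT5, these windows were searched on both strands for the STAT motif TTCNNNGAA, and for TGGGAA, which contains the core that Ikaros factors bind. No window held both motifs. The STAT motif was present in 2 of the 3 windows and in 8.3% of all 32851 promoters of that length. The letters TGGGAA were in 0 of the 3 and in 25.6% of all promoters. The 2 windows with a STAT match are printed 5′ to 3′ on the gene's own strand, with the match in capitals. That of Ikzf1 starts 19 bases after the transcription start and that of Ikzf5 226 bases before it. A match is a description of the letters only.
Ikzf1, chr11:11689927-11690226, plus strand: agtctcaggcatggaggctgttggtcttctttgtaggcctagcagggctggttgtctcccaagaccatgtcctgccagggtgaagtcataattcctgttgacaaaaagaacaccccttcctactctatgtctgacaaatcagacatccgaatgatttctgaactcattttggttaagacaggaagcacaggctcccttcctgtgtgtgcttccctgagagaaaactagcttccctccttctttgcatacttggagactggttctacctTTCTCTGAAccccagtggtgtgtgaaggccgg
Ikzf5, chr7:131410429-131410728, minus strand: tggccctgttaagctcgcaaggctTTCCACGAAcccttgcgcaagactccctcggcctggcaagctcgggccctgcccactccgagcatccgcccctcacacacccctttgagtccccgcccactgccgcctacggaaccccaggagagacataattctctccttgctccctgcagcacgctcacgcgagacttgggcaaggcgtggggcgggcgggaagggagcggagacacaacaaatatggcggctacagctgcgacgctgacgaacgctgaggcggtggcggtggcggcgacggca
The other Ikzf1 window (chr11:11685675-11685974) consists to 81.3% of G and C and holds neither motif.

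Ikzf2 encodes Helios. Its brighter probe (A_66_P122551, transcript NM_011770, chromosome 1) stood at -1.56, -1.46 and -1.78 in wild-type 1, 2 and 3 and at -1.52 and -2.04 in IL15ko 1 and 2. The groups overlapped. The log2 difference was -0.18 ± 0.21 (SE, 95% confidence interval -0.71 to 0.35, limma adjusted p = 0.605). Without IL15ko 2 the difference was 0.08. The other probe (A_52_P413515) was the most even of the family, at -2.002, -1.965 and -2.004 in wild-type 1, 2 and 3 and at -1.71 and -1.69 in IL15ko 1 and 2. Its groups did not overlap, but its log2 difference of 0.29 ± 0.12 was not called (adjusted p = 0.207 over named probes). Helios was thus measured without a called change, and its probes differed in sign.

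Ikzf3 encodes Aiolos and has a single probe here (A_55_P2113598, transcript NM_011771, chromosome 11). It stood at -3.66, -3.09 and -3.86 in wild-type 1, 2 and 3 and at -4.07 and -3.36 in IL15ko 1 and 2. Its groups overlapped widely, with SDs of 0.40 and 0.51, the largest within-group SD of the family among the IL15ko arrays. The log2 difference was -0.18 ± 0.32 (SE, 95% confidence interval -0.99 to 0.64, limma adjusted p = 0.748). A rise of up to 0.64 and a fall of up to 0.99 on the log2 scale lie within that interval, so the arrays do not resolve the direction of Aiolos. The difference was 0.05 without wild-type 2, 0.18 without IL15ko 1 and -0.54 without IL15ko 2.

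Ikzf5 encodes Pegasus, the most divergent member, which recognises other DNA sequences than Ikaros. Its brighter probe (A_52_P582261, transcript NM_175115, chromosome 7) stood at -2.96, -3.24 and -2.65 in wild-type 1, 2 and 3 and at -3.06 and -2.58 in IL15ko 1 and 2, with overlapping groups. The log2 difference was 0.13 ± 0.25 (SE, 95% confidence interval -0.49 to 0.75, limma adjusted p = 0.760). It was -0.02 without wild-type 2 and -0.12 without IL15ko 2. The dimmer probe (A_66_P123989) read -3.28, -3.42 and -3.14 in wild-type 1, 2 and 3 and -4.01 and -3.80 in IL15ko 1 and 2. Both IL15ko arrays lay below all wild-type arrays, and the log2 difference of -0.62 ± 0.16 missed the threshold (adjusted p = 0.0827 over named probes). This probe was called in 1 of its 16 alternatives, the fit of probes well above background on all 5 arrays (limma adjusted p = 0.0493). The changes of both Ikzf5 probes differed by 0.75, again without overlap of the groups (exact permutation p = 0.1).

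Probes of the same gene thus pointed in opposite directions in all 4 members with several probes. Among the 2997 genes with several tested probes, 37.9% had probes of both signs. The gap between the changes of a gene's probes was 2.10 for Ikzf4, 1.00 for Ikzf1, 0.75 for Ikzf5 and 0.47 for Ikzf2, against a median of 0.35 over those genes. That of Ikzf4 was wider than in 99.4% of them. The groups did not overlap in 7 of the 10 family probes, and in 46.5% of all named probes. In Ikzf1, Ikzf4 and Ikzf5 the dimmest probe was the one with the lower change, and in Ikzf2 the dimmer probe had the higher change. Over all named probes the median log2 difference was -0.10 in the dimmest of 5 equal classes of brightness, which holds the Ikzf4 probe A_55_P1979682, and between -0.02 and 0.04 in the other classes. The part of signal level in the opposed directions was not tested.

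**Figure D2:**
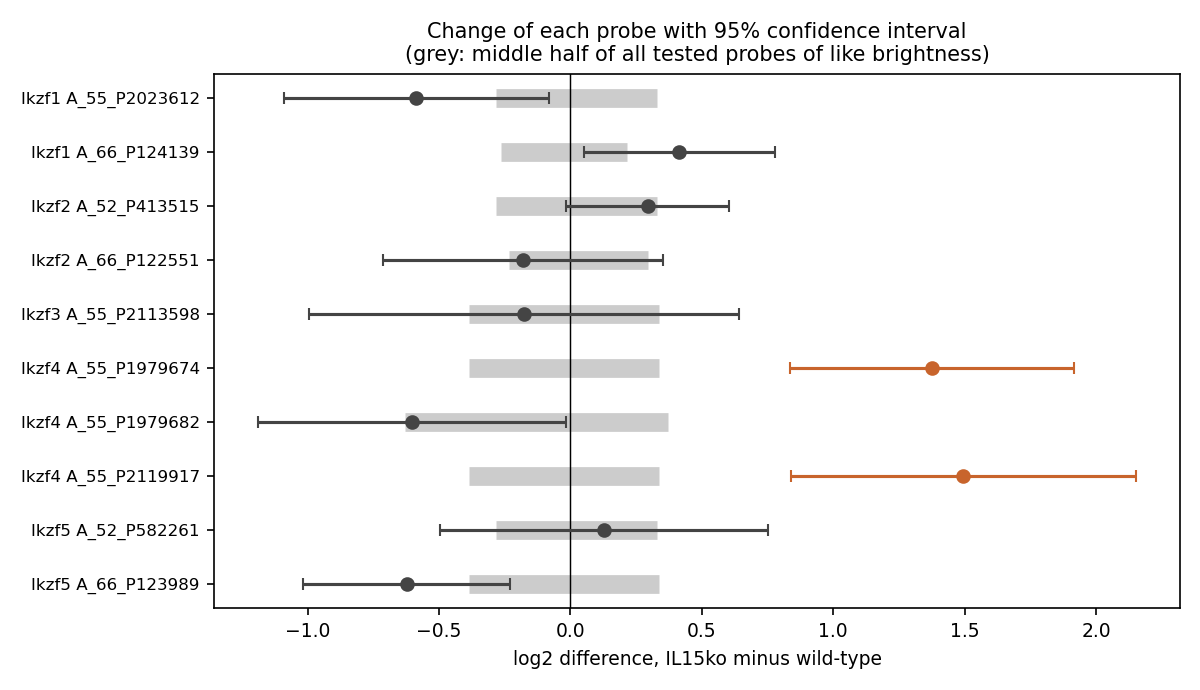
The plot of changes per probe gives the log2 difference, IL15ko minus wild-type (horizontal axis), with its 95% confidence interval, in orange where the adjusted p was under 0.05, beside a grey bar from the lower to the upper quartile of all tested probes in the same class of brightness. Both called Ikzf4 probes, at 1.37 and 1.49, lie beyond their grey bars. The Ikzf4 probe A_55_P1979682 and the dimmer probe of Ikzf1, Ikzf2 and Ikzf5 fall on the other side of 0 from their gene's brightest probe.

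The genes whose pattern over the 5 arrays was closest to each member were found by the root-mean-square difference of the 5 log2 values, after centring each gene on its own mean, among 9759 other genes detected on all arrays. The closest to Ikzf4 were Itga5, which encodes an integrin chain (0.052), Nrgn, which encodes neurogranin (0.052), and Zbtb16, which encodes PLZF, the factor that directs the NKT lineage (0.092). For comparison, Ikzf4 itself varied by 0.70 around its mean. Genes chosen for likeness on these same arrays share the changes of Ikzf4 by that choice. Their directions and calls are therefore a description and no separate evidence. All 3 were called higher, with log2 differences of 1.36 for Itga5 (limma adjusted p = 0.034), 1.40 for Nrgn (adjusted p = 0.0286) and 1.501 for Zbtb16 (adjusted p = 0.0161). Zbtb16 stood at 1.74, 1.73 and 1.46 in wild-type 1, 2 and 3 and at 3.01 and 3.28 in IL15ko 1 and 2. As with Ikzf4, wild-type 3 was the lowest array and IL15ko 2 the highest. The call of Zbtb16 held in 12 of 18 alternatives and those of Itga5 and Nrgn in 8. Zbtb16 lost its call without wild-type 1 (adjusted p = 0.0824), wild-type 2 (adjusted p = 0.067) or IL15ko 2 (adjusted p = 0.0672). Itga5 lost it without wild-type 1, wild-type 2, IL15ko 1 or IL15ko 2, with adjusted p between 0.0721 and 0.155. Nrgn lost it without any single array, with adjusted p between 0.0504 and 0.114.

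**Figure D3:**
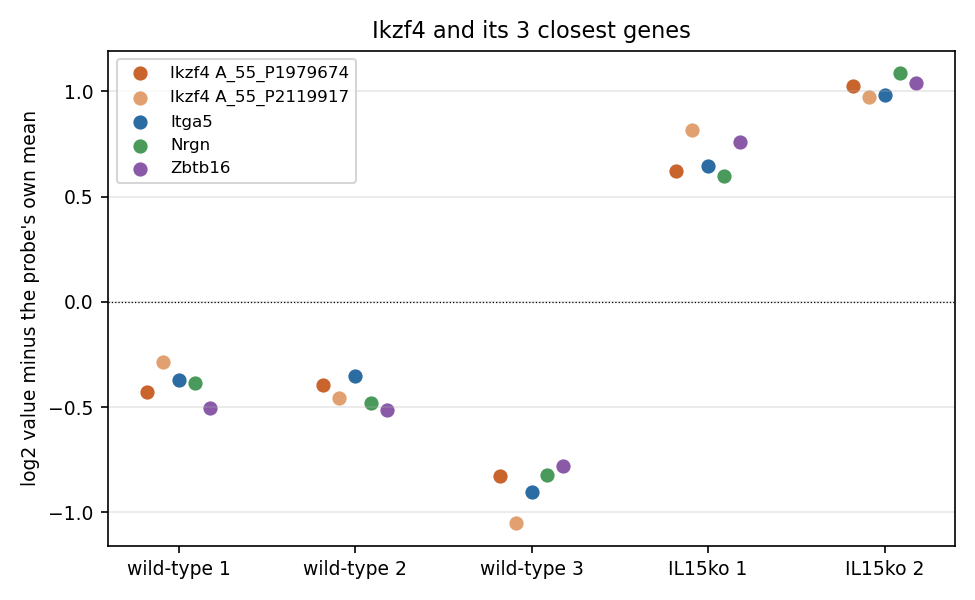
The plot of Ikzf4 and its closest genes shows log2 values minus each probe's own mean (vertical axis) on the 5 arrays for both rising Ikzf4 probes, Itga5, Nrgn and Zbtb16. All lie below 0 on the 3 wild-type arrays and above 0 on both IL15ko arrays.

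The members without a call had close neighbours that were not called either. Ikzf1 was closest to Pum2 (0.011), Tmem131 (0.013) and Lrmp (0.016), Ikzf2 to Gm5088, Safb2 and Qrich1 (0.041 to 0.047), and Ikzf5 to Sde2, Zfand2a and Aldh6a1 (0.031 to 0.073). Ikzf3 was closest to F9, Iqcg and Lgi4 (0.046 to 0.094). Likeness over 5 arrays is given as a description, and like changes follow from how the neighbours were chosen.

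None of the listed genes for partners of the Ikaros factors passed the test in the reported setting. Of 19 genes for NuRD subunits and other corepressors, 18 were tested and 0 were called by limma, against 7.33% of all genes. For 18 genes a count of 0 is near that share. At an unadjusted p under 0.05 there were 3 (16.7%, against 27.5% of all tested genes), namely Gatad2b, Mta2 and Gatad2a. Their median log2 difference was 0.13, against 0.01 over all genes. The ATPase gene Chd4, the core of NuRD, differed by 0.05 ± 0.12 on the log2 scale (limma adjusted p = 0.800), and the deacetylase gene Hdac1 by 0.06 ± 0.17 (adjusted p = 0.837). Gatad2b, a NuRD scaffold gene, had the largest at 0.97 ± 0.21 (adjusted p = 0.0578), and it was called in 4 of 18 alternatives. The other NuRD genes with a small p were Mta2 at 0.47 (adjusted p = 0.0819) and Gatad2a at -0.38 (adjusted p = 0.182). Ctbp2 was well above background on 1 array and not tested. With a trended, robust variance prior 2 members were called, and without IL15ko 1 there was 1.

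Genes that Ikaros factors have been linked to in lymphocytes fell in part. Of 28 such genes, 20 were tested, 4 were lower (against 3.58% of all genes), 0 were higher (against 3.75%) and 16 did not pass. The median log2 difference of the 20 was -0.19, against 0.01 over all genes. The list was chosen with earlier results of these data known, so these counts only describe it and test nothing. The 4 were Tbx21, which encodes T-bet (-1.77 ± 0.15, limma adjusted p = 0.00881), Dtx1, a Notch target (-1.17 ± 0.19, adjusted p = 0.0290), Ifng (-2.75 ± 0.51, adjusted p = 0.0408) and Ccnd3, a cyclin gene (-0.82 ± 0.16, adjusted p = 0.0469). Dtx1 stood at 0.87, 0.80 and 1.27 in wild-type 1, 2 and 3 and at -0.23 and -0.16 in IL15ko 1 and 2. Over 18 alternatives the call held in 14 for Tbx21, 10 for Ifng, 9 for Dtx1 and 3 for Ccnd3. That of Ccnd3 was lost without any single array (adjusted p between 0.0627 and 0.178). The value of Ifng was -1.87 without IL15ko 1 and -3.64 without IL15ko 2. The count of called members was 0 without wild-type 1, 1 without wild-type 2, and 2 without wild-type 3, IL15ko 1 or IL15ko 2. Myc, with a value of 0.05 ± 0.15 (adjusted p = 0.857), was not called, nor was Il7r at -0.06 ± 0.15 (adjusted p = 0.814). Il2, a classic target of silencing by these factors, was well above background on 2 of the 3 wild-type arrays and on neither IL15ko array. It thus entered the test only through wild-type arrays, and its value (-2.11 ± 0.51, limma adjusted p = 0.0726) is tied to that. Of the 20 tested genes, 8 had positive and 12 negative values, Il2 among the latter. Over all genes tested, 6167 were positive and 5830 negative. Cd4 had the largest upward value at 0.87 ± 0.18 (limma adjusted p = 0.0531) and was called in 4 of 18 alternatives.

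Genes of strong T-cell receptor signals and agonist selection, the setting in which Helios is known, moved both ways. Of 14 genes, 12 were tested, 2 were higher and 2 lower and 8 did not pass, with a median log2 difference of 0.32 against 0.01 over all genes. Over all genes 3.75% were called higher and 3.58% lower. This list too was chosen with earlier results of these data known, so its counts are a description only. Pdcd1, which encodes PD-1, rose by 0.97 ± 0.13 on the log2 scale (limma adjusted p = 0.0216) and Cd5, an inhibitory receptor gene, by 0.66 ± 0.12 (adjusted p = 0.0398). Lower values were found for Tnfrsf18, which encodes GITR (-1.01 ± 0.12, adjusted p = 0.0179), and for Cd69, an activation marker gene (-1.69 ± 0.30, adjusted p = 0.0375). Nr4a1, an early response gene, had the largest upward value at 1.74 ± 0.43 but was not called (adjusted p = 0.0746). The count of called members was 0 without wild-type 1 or wild-type 2, 2 without wild-type 3, and 1 without IL15ko 1 or IL15ko 2.

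**Figure D4:**
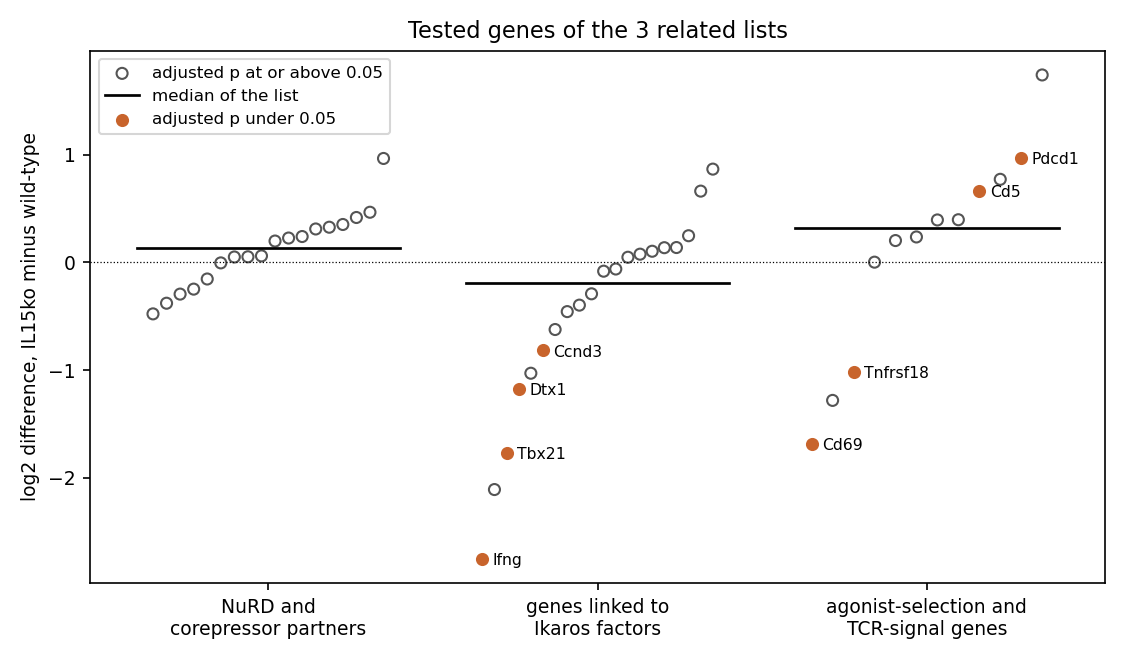
The plot of the 3 related lists shows the log2 difference, IL15ko minus wild-type (vertical axis), of each tested gene, filled in orange where the limma adjusted p was under 0.05, with a black line at the median of each list. No NuRD or corepressor gene is filled, while Tbx21, Dtx1, Ifng and Ccnd3 are filled below 0 among the genes linked to Ikaros factors.

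Markers of cells that could accompany the sorted NKT cells were read beside the Ikzf4 result. Of 7 measured markers of regulatory T cells, in which Eos is known, Ctla4 and Gpr83 were well above background on no array. Foxp3, their defining factor gene, had a log2 difference of -0.29 ± 0.19 (limma adjusted p = 0.373) and reached that level on 3 wild-type arrays and 1 IL15ko array. Its difference was 0.43 with normexp, where the median of all genes was at 0.22. In the authors' deposited value table it was 0.15, with that median at 0.08. The summed signal of that list was 133 to 172 parts per 1000000 of all gene signal in wild-type and 79.4 to 85.8 in IL15ko. This sum follows Tnfrsf18, whose processed signal was 2845 to 6853 in wild-type and 716 to 2223 in IL15ko. Those of Foxp3, Il2ra and Nrp1 reached at most 70.5 in wild-type and 138 in IL15ko. The sum thus says little of the list as a whole. Of the 4 tested members, Nrp1 was higher, as was Ikzf4 (2.24 ± 0.35, 4.73-fold, adjusted p = 0.0286), Tnfrsf18 was lower, as given above, and Foxp3 and Il2ra were not called. Of 8 B-cell markers, 5 were well above background on no array, among them Cd79a and Pax5. The other 3 were Cd79b (0.92 ± 0.24, adjusted p = 0.0881), Blk (1.11 ± 0.42, adjusted p = 0.172) and Cd22 (-0.03 ± 0.36, adjusted p = 0.961), and none was called. The summed signal of the B-cell list was higher in IL15ko, as was Ikzf4, at 16.1 to 17.6 parts per 1000000 against 10.9 to 11.4 in wild-type. Of 8 markers of double-positive thymocytes, 5 were well above background on no array, among them Rag1, Ptcra and Cd8a. Cd1d1 (-0.16 ± 0.12, adjusted p = 0.415) and Dntt (0.08 ± 0.78, adjusted p = 0.959) of that list were not called. Its summed signal was higher in IL15ko, at 56.5 to 68.1 parts per 1000000 against 35.7 to 39.3 in wild-type. That sum includes members not reported here.

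Summed signals of the NK and myeloid lists were lower in IL15ko. The summed signal of 7 NK and innate lymphoid markers was 773 to 980.1 parts per 1000000 in wild-type and 187 to 231 in IL15ko, with Ncr1 well above background on no array and Klra8, Klre1, Klra4 and Klrb1c called lower. That of 9 measured myeloid and dendritic markers was 129.8 to 150.1 and 35.2 to 37.9, with Lyz2, Itgax and Flt3 well above background on no array. Its called members were Fcer1g, which NK cells also express (-2.49 ± 0.22, limma adjusted p = 0.00917), and Cd74, which was higher (1.06 ± 0.17, adjusted p = 0.0294). Klra8 (processed signal 9382 to 23010 in wild-type) and Fcer1g (2291 to 4963) were the brightest members and weigh most in these sums. Eomes of the NK list was well above background on only 1 array. Neither sum thus gives the amount of a cell type. The part of these cell types in the values of the Ikaros family was not tested.

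**Figure D5:**
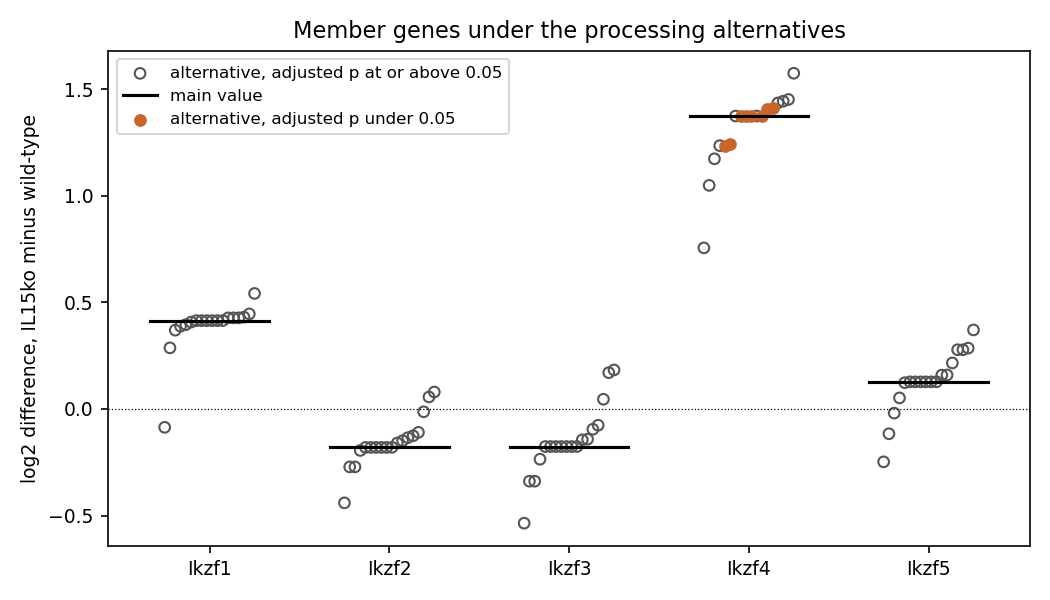
The plot of processing alternatives shows the log2 difference, IL15ko minus wild-type (vertical axis), of each member gene under 18 alternatives as circles, filled in orange where the adjusted p was under 0.05, with the main value as a black line. Ikzf4 lies between 0.76 and 1.58 and has the 8 filled circles, while each of the other members crosses 0 in at least 1 alternative.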

How the data were processed

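Spot intensities of 5 arrays were used, 3 of wild-type and 2 of IL15ko NKT cells. Per the file headers, the deposited intensities come from Agilent Feature Extraction 10.7.1.1, which subtracts background and removes spatial trends on each array but does not scale arrays to one another. Limma is also named, without settings, per the submitters' processing notes. For bright spots, the authors' deposited value table equals spot median minus local background median plus 1 constant per array. All arrays lay on 1 slide and scan, so no batch could be tested.

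Control and outlier spots were left out, and 0 spots were saturated. Log2 processed signals were centred on each array's 75th percentile taken from the 18519 probes that all 5 arrays detected well above background, since fewer than 50% of the probes were detected on each. Accessions were matched without versions to RefSeq genes of GRCm38.p6, which named 26425 of 55681 probes and left 29256 unnamed. A gene was represented by its brightest probe and tested if well above background on at least 2 arrays, using limma 3.58.1 (lmFit, then eBayes; R 4.3.3) (3 residual and 2.28 prior degrees of freedom) and Benjamini-Hochberg adjustment. Errors are moderated standard errors. A second fit took each of 15581 named probes as a feature. The fit was tested on simulated data. Planned normexp used spot medians, because the files hold no spot means. The number of arrays limits the precision.

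The members and gene lists were chosen with earlier results of these data known. Named genes were the members, up to 4 genes per list by smallest p, genes needed for counts or at background, and the 3 closest genes per member. Genes picked after their values were seen were Chd4, Hdac1, Myc, Il7r, Il2, Cd4, Eomes, Cd3e, Cd3d, Lck and the sex-linked genes. Alternatives covered background correction, scaling, filter, variance prior, probe choice, features in the fit, the authors' table, a replicate block and left-out arrays. Results on some marker genes are not reported here.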

Additional observations from a re-analysis of the deposited data

How the results depend on the processing

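Under normexp with an offset of 50 the median of all genes was at 0.22 and without a filter on dim probes at 0.24, against 0.01 in the reported setting, so values under these alternatives are to be read against that shift. Ikzf4 kept its direction in all 18 alternatives and lost its call with normexp (1.05, limma adjusted p = 0.201), without the filter (1.37, adjusted p = 0.143), with the replicate block (1.24, adjusted p = 0.054), with wild-type 1 and 2, the closest pair of arrays, averaged (1.44, adjusted p = 0.0856), with the mean of its probes (0.76, adjusted p = 0.0521) and with all probes tested (1.37, adjusted p = 0.053). With 1 array left out, which could not reverse its direction, it lay between 1.17 and 1.58. With the mean of a gene's probes Ikzf1 was at -0.086, Ikzf2 at 0.056 and Ikzf5 at -0.25, and with normexp Ikzf3 was at 0.17, the Ikzf4 probe A_55_P1979682 at 0.28 and Foxp3 at 0.43 (0.15 in the authors' deposited value table). With 1 array left out Ikzf2 lay between -0.44 and 0.080 (probe A_66_P122551), Ikzf3 between -0.54 and 0.18, Ikzf5 between -0.12 and 0.37 and Ikzf1 between 0.29 and 0.54. The cause of these changes was not tested.

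Genes called higher and lower numbered 0 and 1 with normexp, 0 and 3 without the filter, 820 and 695 with a trended, robust prior, 138 and 241 with the replicate block and 34 and 67 with wild-type 1 and 2 averaged, and 710 were higher among genes detected on all 5 arrays. With 1 array left out they ran from 1 to 373 and from 8 to 411. Of the NuRD and corepressor genes, 1 was called with the percentile over all probes, with median centring or among genes detected on all 5 arrays, 2 were called with the trended prior, and 0 to 1 with 1 array left out. Of the genes linked to Ikaros factors, 0 were called with normexp, without the filter or with wild-type 1 and 2 averaged, 7 with the trended prior, 1 with the replicate block or all probes, and 0 to 2 with 1 array left out. Of the agonist-selection genes, 0 were called with normexp, without the filter, with the replicate block or with wild-type 1 and 2 averaged, 2 with all probes, and 0 to 2 with 1 array left out. The lower counts with 1 array fewer come with fewer samples in the fit.

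Replicate numbers 1 and 2 are shared by both groups, but the labels do not say that they pair the samples. Deviations from the group means correlated at -0.13 for number 1 and 0.21 for number 2. With 2 IL15ko arrays these deviations mirror each other, so each wild-type array correlates with both at the same size and opposite sign. The correlations therefore cannot decide whether the samples are paired. The replicate block leaves wild-type 3 a level of its own, so its values are those of wild-type 1 and 2. Signal over background limits the dim probes, the Ikzf4 probe A_55_P1979682 most.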
